A study of Mus musculus with 24 samples.

Results

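The genes measured here are the 37 genes of the mouse mitochondrial genome, taken as every gene whose name begins with mt- among the 56941 genes of the expression table. They comprise 13 genes for proteins, 2 for ribosomal RNAs and 22 for transfer RNAs, and these classes are described apart. The cells were C2C12 mouse myoblasts, an established skeletal muscle precursor line, that carried the light-gated channel ChR2 fused to tdTomato (genotype ChR2::tdTomato) in every group, controls included, and had been differentiated into contractile muscle. The control group received no light stimulation. The other groups were given pulses of blue light at 1Hz, 4Hz or 10Hz for 30 min each day of about 2 weeks of culture. Tissues of all conditions, controls included, twitched spontaneously. Each of the 4 conditions had 6 libraries from tissues of this single cell line, which has no blood vessel, nerve or immune cells of an animal around it. The comparisons ask how the transcripts of the mitochondrial genome differed with the frequency of the light pulses. The rate at which the tissues contracted was not among the values used here.

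The 24 libraries held 4.09 to 15.2 M estimated counts (median 7.48). All 10 muscle identity genes checked were present, with a summed level of 8441 to 10596 CPM (counts per M counts of the library) in control, 11602 to 15645 at 1Hz, 12238 to 18132 at 4Hz and 8916 to 13549 at 10Hz. The 1Hz and 4Hz libraries lay above control without overlap, and the part of this difference in the results was not tested. The 7 genes of undifferentiated or dividing cells summed to 32.3 to 64.5 CPM over all libraries. Of 9 markers of other cell types, the lysosomal gene Cd68 made up nearly all of the 67.7 to 124 CPM, whereas the defining leukocyte gene Ptprc had 1 count and the macrophage gene Adgre1 2 counts over all 24 libraries. Of the 60 pairs of libraries within a condition, none matched within counting noise.

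The mitochondrial genome is a small DNA circle read from both strands as long precursor RNAs, which are cut apart largely at the transfer RNAs that punctuate them. Its proteins are core subunits of the respiratory chain and of the ATP synthase, its ribosomal RNAs build the ribosome that makes those proteins inside the organelle, and muscle, which needs much ATP, holds many mitochondria. Most of its protein genes lie on one coding strand, and mt-Nd6 is the only one on the other. Pieces of this genome have also been copied into nuclear chromosomes during evolution, so that short reads can fit both places.

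In the annotation of mouse build GRCm39, this circle is 16299 bases long, and 12 protein genes, both ribosomal RNA genes and 14 transfer RNA genes lie on its plus strand. The minus strand carries mt-Nd6 (chrM:13552-14070) and 8 transfer RNA genes. Each member is 1 uninterrupted exon. The first 60 bases of mt-Nd6, of mt-Co1 to which it is compared, and of mt-Nd1 and mt-Rnr1, which were among the members that changed most, are shown with the start codon in capitals where the gene encodes a protein. All 4 were read from the reference genome in the direction of the gene.
mt-Nd6, chrM:14011-14070 (minus strand): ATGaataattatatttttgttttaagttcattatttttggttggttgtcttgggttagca
mt-Co1, chrM:5328-5387 (plus strand): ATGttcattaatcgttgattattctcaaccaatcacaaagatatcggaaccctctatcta
mt-Nd1, chrM:2751-2810 (plus strand): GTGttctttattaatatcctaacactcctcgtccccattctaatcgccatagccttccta
mt-Rnr1, chrM:70-129 (plus strand): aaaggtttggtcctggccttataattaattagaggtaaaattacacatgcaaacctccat
Read in this direction, C makes up 5.97% and A 22.2% of mt-Nd6, against 23.8% and 29.5% of mt-Co1.

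The transfer RNA genes were hardly seen. Their 22 genes, 59 to 75 bases long, collected 61 counts in all 24 libraries together, 9 of them had none in any library, and no gene had more than 5 in one library. By strand, the 14 genes of the plus strand held 40 counts and the 8 of the minus strand 21. Control libraries held 0 to 4 such counts each (median 1.5), 1Hz 0 to 5 (median 1.5), 4Hz 0 to 5 (median 1.5) and 10Hz 2 to 11 (median 4.5). In the 5 libraries with none, 0 counts allow up to 3, that is 0.379 to 0.734 CPM, a limit that covers counting error only. Every transfer RNA gene fell below the filter on low counts and entered no test across genes, and the class sums were not tested either.

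The protein genes and the ribosomal RNA genes did not move alike. The 13 protein genes took 2.00% ± 0.293 of a library's counts in control (SD, n = 6), 1.64% ± 0.292 at 1Hz, 2.63% ± 1.09 at 4Hz and 2.74% ± 0.746 at 10Hz. The ranges overlapped: 1.58 to 2.33% in control, 1.30 to 2.10% at 1Hz, 1.64 to 4.16% at 4Hz and 1.82 to 4.02% at 10Hz. At 4Hz the libraries fell into sets, with libraries 3, 4 and 5 at 3.00%, 3.53% and 4.16% and the other three between 1.64% and 1.72%. Their depths of 7.55 to 11.5 and 7.71 to 10.7 M counts overlapped. The 4Hz values against control are therefore given also without libraries 3, 4 and 5, a choice made after their levels were seen. Leaving out the highest libraries lowers the 4Hz levels by itself. Values lower at 4Hz, or higher at 10Hz than at 4Hz, that come from this choice are therefore descriptions and not valid tests.

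The ribosomal RNA genes took 0.594% ± 0.157 in control, 0.243% ± 0.0788 at 1Hz, 0.344% ± 0.149 at 4Hz and 0.608% ± 0.226 at 10Hz (SD, n = 6 each). All 6 libraries of 1Hz, at 0.156 to 0.368%, lay below the control range of 0.434 to 0.858%, while 4Hz (0.162 to 0.551%) and 10Hz (0.350 to 0.830%) overlapped it. Set against the protein genes, there were 29.3 ± 4.03 ribosomal RNA counts per 100 protein gene counts in control, 14.5 ± 2.22 at 1Hz, 13.2 ± 2.91 at 4Hz and 22.6 ± 7.49 at 10Hz. On this ratio, every 1Hz library (12 to 17.5) and every 4Hz library (9.85 to 17.2) lay below every control library (24.8 to 36.9), while 10Hz spanned 13.9 to 32.2. These class sums are descriptions with no test. In tissue-level RNA, fewer mitochondria or cells and less RNA in each cannot be told apart.

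**Figure D1:**
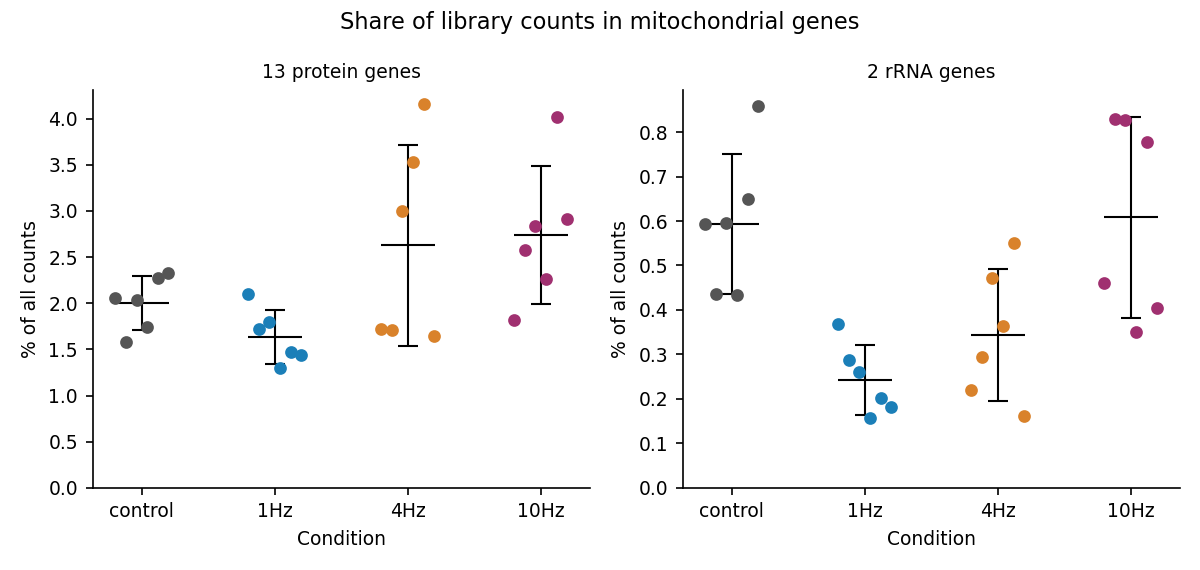
Share of each library's estimated counts (%) taken by the 13 protein genes and by the 2 ribosomal RNA genes, with 1 point per library, 6 per condition, and bars for the mean ± SD. Protein gene shares reach 4.16% at 4Hz with overlap of all conditions, and the ribosomal RNA shares of 1Hz, 0.156 to 0.368%, lie below all control points.

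Levels of different genes were compared per length, as transcripts per M transcripts (TPM). mt-Co1, the catalytic subunit of cytochrome c oxidase, stood highest among the protein genes in every condition, with a mean TPM of 8236 in control, 6429 at 1Hz, 10226 at 4Hz and 11059.8 at 10Hz. In control, mt-Co2 followed at 7561 ± 1596 TPM (SD, n = 6), then the ATP synthase subunits mt-Atp8 at 6578 ± 1817 and mt-Atp6 at 5285 ± 1175. These neighbours in the order, mt-Co1 at 8236 ± 1012 included, lay within each other's spread. mt-Nd3 (298 TPM) and mt-Nd6 (133 TPM) stood lowest in control. With the counts of nuclear copies added, mt-Nd3 stood at 1447 TPM in control and mt-Nd6 was lowest in all 4 conditions.

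The nuclear copies hold a large part of some genes' counts. Genes elsewhere in the annotation were matched to the mitochondrial genome at 90% identity or more over at least 80% of their length, and a run of them lies on the minus strand of chromosome 1 of GRCm39. Of all counts for a gene and its copies together, the copies held 85.1% for mt-Nd3, 61.1% for mt-Co3, 42.8% for mt-Nd4l, 24.6% for mt-Co2, 8.98% for mt-Atp6 and 5.82% for mt-Co1. For mt-Nd4, mt-Nd5, mt-Nd2 and mt-Cytb the share was 0.0140% or less, for mt-Nd6 it was 0, and no copy met the match rule for mt-Atp8, mt-Nd1 and both ribosomal RNA genes. These shares are the counting software's split of reads that fit both places, and the genes concerned are therefore uncertain as deposited.

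Stretches of 60 bases show how alike the places are. Capitals mark the base that differs, and all are written in the direction of the mitochondrial gene.
mt-Co1, chrM:6390-6449 (plus strand): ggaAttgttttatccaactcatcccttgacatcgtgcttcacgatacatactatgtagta
Gm29216, chr1:24655210-24655269 (minus strand): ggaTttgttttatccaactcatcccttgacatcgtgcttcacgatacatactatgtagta
mt-Nd3, chrM:9459-9518 (plus strand): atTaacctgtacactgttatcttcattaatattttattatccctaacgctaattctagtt
Gm28438, chr1:24652141-24652200 (minus strand): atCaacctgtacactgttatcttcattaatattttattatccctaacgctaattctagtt
mt-Nd4l, chrM:9877-9936 (plus strand): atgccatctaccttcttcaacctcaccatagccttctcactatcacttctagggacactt
Gm10222, chr1:24651722-24651781 (minus strand): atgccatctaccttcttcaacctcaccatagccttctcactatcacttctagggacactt
The substitution is A1066T in the 483 bases that the annotated copy Gm29216 shares with mt-Co1 and T3C in the 345 bases that Gm28438 shares with mt-Nd3, with positions counted from 1 at the first base of the mitochondrial gene. Gm10222 and mt-Nd4l did not differ, nor did mt-Co2 and Gm28661, mt-Co3 and Gm28437, or mt-Atp6 and Gm10925, over the whole match. mt-Nd4 and Gm28439 did not differ over 876 bases either, yet only 0.0102% of counts for mt-Nd4 were in copies. An identical copy thus did not always hold a large share.

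The split moved with the condition. Copies held 8.98% ± 5.11 of the counts for mt-Co2 in control (SD, n = 6), 30.1% ± 12.7 at 1Hz, 34.8% ± 10.9 at 4Hz and 20.0% ± 5.76 at 10Hz. Every 1Hz and 4Hz library, at 15.6% or more, lay above the control maximum of 15.5%. For mt-Nd4l the median share was 0% in control, where 4 of 6 libraries had no copy counts, and 57.8%, 44.5% and 48.5% at 1Hz, 4Hz and 10Hz. For mt-Atp6 it averaged 0.741% in control, 13.9% at 1Hz, 17.3% at 4Hz and 6.09% at 10Hz, whereas for mt-Co1 it was 7.45%, 7.83%, 5.67% and 5.03%. The mt-Co3 shares of 52.2%, 60%, 63.2% and 64.1% and the mt-Nd3 shares of 77.3%, 89.4%, 83.5% and 85.4% were high throughout. Results for mt-Co2, mt-Co3, mt-Nd3, mt-Nd4l and mt-Atp6 are therefore given also with the copies' counts added to the gene.

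**Figure D2:**
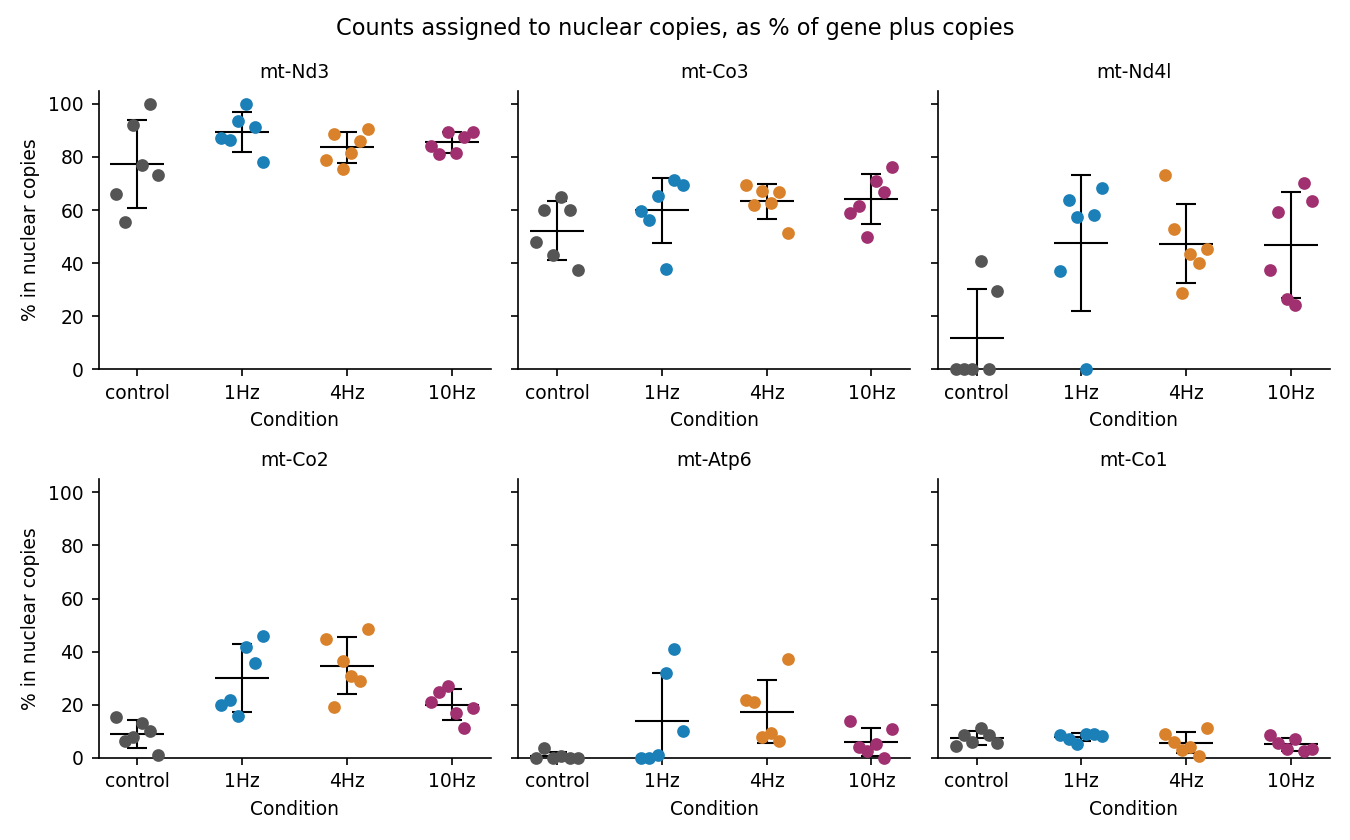
Share of a gene's counts (%, gene and nuclear copies together) that was assigned to the copies, for 6 genes by condition, with 1 point per library and bars for the mean ± SD of 6. For mt-Co2 the 1Hz and 4Hz points start at 15.6%, above the control maximum of 15.5%.

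Of the 37 genes, the 13 protein genes and both ribosomal RNA genes passed the filter on low counts and were tested among 13318 genes with edgeR's quasi-likelihood test. A gene was called where the Benjamini-Hochberg adjusted p over all tested genes was below 0.05 and the log2 fold change exceeded 0.5 in size. Where a single gene is said to hold, lose or pass the threshold in an alternative fit, its adjusted p alone was judged. Against control, 1Hz had 0 protein genes called higher and 1 called lower, with both ribosomal RNA genes called lower, where 9.34% of all tested genes were called higher and 8.99% lower. At 4Hz, 6 protein genes were called higher and 1 ribosomal RNA gene lower, against 10.5% and 9.61% of all tested genes. At 10Hz, 3 protein genes were called higher and no member lower, against 1.24% and 0.623%. The comparisons share the control libraries. Without regard to adjustment, p was below 0.05 for 6 of the 15 members at 1Hz, where this held for 44.4% of all tested genes, for 9 at 4Hz (47.8% of all) and for 8 at 10Hz (20.6% of all). The median log2 fold change of the 13 protein genes was -0.11 at 1Hz, 0.50 at 4Hz and 0.54 at 10Hz, where that of all tested genes was -0.01 in each comparison.

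**Figure D3:**
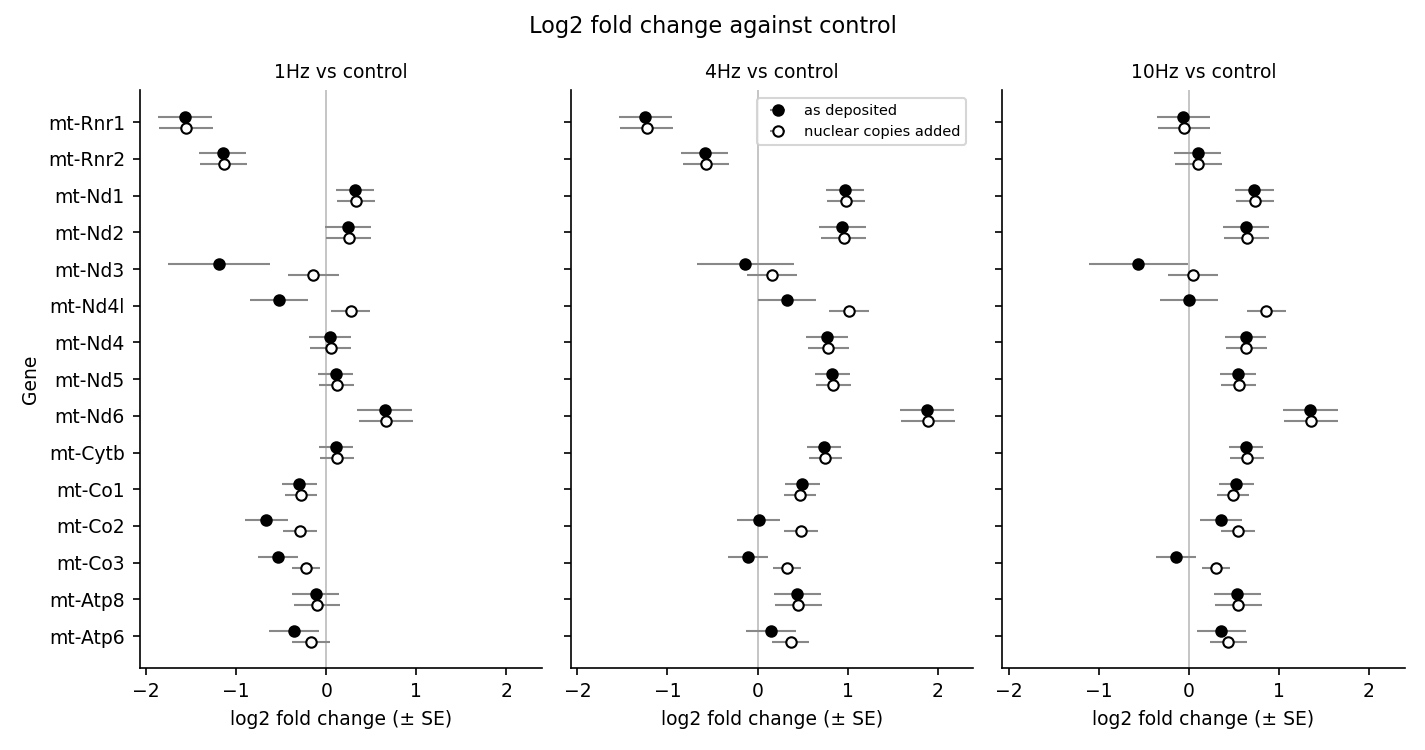
Log2 fold change ± SE against control (x axis) for the 15 members tested (y axis), at 1Hz, 4Hz and 10Hz in separate panels, from the counts as deposited and with the counts of nuclear copies added. mt-Nd6 stands highest of the members at 4Hz (1.88) and 10Hz (1.35), and both ribosomal RNA genes stand at -1.15 and below at 1Hz.

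mt-Rnr1 and mt-Rnr2 encode the RNAs of the small and the large subunit of the mitochondrial ribosome, and both were lower at 1Hz. In CPM scaled for library composition, as used for all gene levels from here on, mt-Rnr1 ranged from 795 to 1790.1 (median 1232) in control, 244 to 660.2 (median 366) at 1Hz, 244 to 758 (median 513) at 4Hz and 579 to 1901 (median 1104) at 10Hz. All 6 libraries of 1Hz and all 6 of 4Hz lay below every control library, while 10Hz libraries lay on both sides of the control range. The log2 fold change against control was -1.57 ± 0.30 (SE, adjusted p = 0.000285) at 1Hz, -1.25 ± 0.30 (SE, adjusted p = 0.00166) at 4Hz and -0.06 ± 0.29 (SE, adjusted p = 0.938) at 10Hz, by edgeR. mt-Rnr2 ranged from 3214 to 6642 (median 4603) in control, 1372 to 2987 (median 1999.8) at 1Hz, 1461 to 4935 (median 2843) at 4Hz and 2859 to 6511 (median 4983) at 10Hz. At 1Hz all 6 libraries lay below every control library, and at 4Hz 3 of 6 did. Its log2 fold change was -1.15 ± 0.26 (SE, adjusted p = 0.00149) at 1Hz, -0.58 ± 0.26 (SE, adjusted p = 0.0761) at 4Hz, not past the threshold, and 0.10 ± 0.26 (SE, adjusted p = 0.885) at 10Hz. Without 4Hz libraries 3, 4 and 5, mt-Rnr2 stood at -1.22 (adjusted p = 0.00313) and mt-Rnr1 at -1.72 (adjusted p = 0.00185). Leaving out the highest libraries moves both values down by itself, so no call is drawn from them. Leaving out only library 3 or only library 5 of 4Hz also brought mt-Rnr2 past the threshold.

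The 7 ND genes encode subunits of complex I, the NADH dehydrogenase that feeds electrons into the respiratory chain, and 5 of them were called higher at 4Hz. mt-Nd6, the minus-strand gene, had the largest fold change. Its CPM ranged from 21.6 to 41.0 (median 32.6) in control, 40.7 to 75.2 (median 47.5) at 1Hz, 55.6 to 239.5 (median 99.9) at 4Hz and 43.6 to 129 (median 80.4) at 10Hz. All 6 libraries of 4Hz and of 10Hz, and 5 of 6 of 1Hz, lay above every control library. The log2 fold change was 0.65 ± 0.30 (SE, adjusted p = 0.0973) at 1Hz, not past the threshold, 1.88 ± 0.30 (SE, adjusted p = 3.16e-05) at 4Hz and 1.35 ± 0.30 (SE, adjusted p = 0.00935) at 10Hz. Of the 4Hz libraries, 3, 4 and 5 were again highest. Without them mt-Nd6 was still called at 4Hz, at 0.94 (adjusted p = 0.00636), and it was then the only protein gene called.

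mt-Nd1, a membrane subunit of complex I, ranged from 732 to 1188 (median 1066) in control, 1119 to 1632 (median 1244) at 1Hz, 1217 to 3279.6 (median 1837) at 4Hz and 1065 to 2743 (median 1557) at 10Hz. All 6 libraries of 4Hz, and 5 of 6 at each of 1Hz and 10Hz, lay above every control library. Its log2 fold change was 0.32 ± 0.21 (SE, adjusted p = 0.249) at 1Hz, 0.97 ± 0.21 (SE, adjusted p = 0.000844) at 4Hz and 0.73 ± 0.21 (SE, adjusted p = 0.0460) at 10Hz. The other membrane subunits mt-Nd2, mt-Nd4 and mt-Nd5 rose at 4Hz, on the log2 scale, by 0.94 ± 0.26 (SE, adjusted p = 0.00481), 0.77 ± 0.23 (SE, adjusted p = 0.00976) and 0.83 ± 0.20 (SE, adjusted p = 0.00157). In CPM, mt-Nd2 ranged from 458 to 795 (median 714) in control and from 639 to 2184 (median 1157) at 4Hz. For mt-Nd4 these ranges were 829.8 to 1452 (median 1301) and 1143 to 3530.5 (median 1918), and for mt-Nd5 826 to 1157 (median 1016) and 1046 to 2795 (median 1723). At 10Hz the same genes stood at 0.63 (adjusted p = 0.147), 0.63 (adjusted p = 0.111) and 0.55 (adjusted p = 0.101), none past the threshold. Without 4Hz libraries 3, 4 and 5, the 4Hz values were 0.33 (adjusted p = 0.192) for mt-Nd1, 0.14 (adjusted p = 0.672) for mt-Nd2, 0.05 (adjusted p = 0.879) for mt-Nd4 and 0.21 (adjusted p = 0.355) for mt-Nd5, so that these calls rest on those libraries as a set. Leaving out any single library kept each of the 4 calls, but limma on log2(TPM + 1) without a filter and the small RNA covariate each lost all 4, and both filtered limma fits lost mt-Nd2 and mt-Nd4. The 10Hz call of mt-Nd1 was lost without any one of control libraries 1 to 5 or of 10Hz libraries 3 to 6, where its adjusted p reached 0.137. Each limma fit and the small RNA covariate lost it too.

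mt-Nd3 and mt-Nd4l, small membrane subunits of complex I, share most or much of their counts with nuclear copies. As deposited, mt-Nd3 stood at -1.19 (adjusted p = 0.106), -0.14 (adjusted p = 0.863) and -0.56 (adjusted p = 0.611) at 1Hz, 4Hz and 10Hz, and mt-Nd4l at -0.53 (adjusted p = 0.212), 0.33 (adjusted p = 0.433) and 0.0026 (adjusted p = 0.998). No value passed the threshold, except that of mt-Nd3 at 1Hz when control library 5 was left out. With the copies added, mt-Nd3 stood at -0.14 (adjusted p = 0.725), 0.16 (adjusted p = 0.677) and 0.04 (adjusted p = 0.955), and mt-Nd4l at 0.27 (adjusted p = 0.345), 1.02 (adjusted p = 0.000654) and 0.86 (adjusted p = 0.0207). mt-Nd4l together with its copy was thus past the threshold at 4Hz and 10Hz, near the changes of mt-Nd1. When libraries 3, 4 and 5 were left out, the 4Hz value of mt-Nd4l was -0.67 (adjusted p = 0.109) as deposited and 0.39 (adjusted p = 0.152) with its copy, so the call rests on those libraries, and mt-Nd3 stood at -1.19 (adjusted p = 0.201) and -0.59 (adjusted p = 0.139). The summed CPM of mt-Nd4l ranged from 106 to 189.9 (median 156) in control, 167 to 481 (median 271) at 4Hz and 158 to 433 (median 254) at 10Hz.

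In CPM, mt-Cytb, the cytochrome b of complex III, ranged from 992 to 1528 (median 1293) in control, 1202 to 1698 (median 1362) at 1Hz, 1301 to 3148 (median 2022) at 4Hz and 1209 to 2796 (median 2016) at 10Hz. Its log2 fold change was 0.11 ± 0.19 (SE, adjusted p = 0.684) at 1Hz, 0.74 ± 0.19 (SE, adjusted p = 0.00292) at 4Hz and 0.64 ± 0.19 (SE, adjusted p = 0.0485) at 10Hz. Both higher groups still overlapped control in part. The 4Hz value was 0.20 (adjusted p = 0.410) without libraries 3, 4 and 5, and the 10Hz call was lost without any one of the 9 libraries named for mt-Nd1, where its adjusted p reached 0.124. Leaving out any single library kept the 4Hz call, but all 3 limma fits and the small RNA covariate each lost it. The same fits, and total count scaling, also lost the 10Hz call.

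Complex IV, cytochrome c oxidase, passes electrons to oxygen, and its 3 mitochondrial genes differed from each other as deposited. In CPM, mt-Co1 ranged from 6286 to 9006 (median 8175) in control, 5117 to 8239 (median 6215) at 1Hz, 6697 to 17427 (median 10152) at 4Hz and 7751 to 16126 (median 11148) at 10Hz. It stood at -0.30 ± 0.19 (SE, adjusted p = 0.236) at 1Hz, 0.50 ± 0.19 (SE, adjusted p = 0.0414) at 4Hz, where the change lay just under the fold threshold, and 0.53 ± 0.19 (SE, adjusted p = 0.110) at 10Hz. Its adjusted p at 4Hz was above 0.05, up to 0.152, without control library 2, 3 or 4 or 4Hz library 3, 4 or 5, and without the last 3 together the value turned to -0.10 (adjusted p = 0.672). In CPM, mt-Co2 ranged from 1972 to 3421 (median 2615) in control, 1146 to 2448 (median 1722) at 1Hz, 1459 to 4284 (median 2559) at 4Hz and 2285 to 5279 (median 3333) at 10Hz. It fell at 1Hz by 0.66 ± 0.24 (SE, adjusted p = 0.0308) on the log2 scale, the only protein gene called lower in any comparison with control. That call was lost without control library 5 or 6 or without 1Hz library 4, 5 or 6 (adjusted p up to 0.0817), and with the copies added it was -0.29 (adjusted p = 0.230). 1Hz libraries 4, 5 and 6 were also those with the highest share of mt-Co2 counts in the copy. At 4Hz and 10Hz mt-Co2 stood at 0.01 (adjusted p = 0.974) and 0.36 (adjusted p = 0.422) as deposited, and at 0.48 (adjusted p = 0.0417) and 0.55 (adjusted p = 0.0871) with the copies. mt-Co3 stood at -0.53 (adjusted p = 0.0616), -0.11 (adjusted p = 0.723) and -0.15 (adjusted p = 0.765) as deposited, and the signs at 4Hz and 10Hz turned with the copies added, at -0.23 (adjusted p = 0.262), 0.33 (adjusted p = 0.0965) and 0.31 (adjusted p = 0.267), none past the threshold. The 1Hz value of mt-Co3 as deposited passed the threshold without control library 2 or 4 or 1Hz library 4. With libraries 3, 4 and 5 left out, the 4Hz values were -0.63 (adjusted p = 0.0519) for mt-Co2 and -0.44 (adjusted p = 0.216) for mt-Co3 as deposited, and -0.07 (adjusted p = 0.756) for mt-Co1, -0.07 (adjusted p = 0.790) for mt-Co2 and -0.12 (adjusted p = 0.570) for mt-Co3 with the copies.

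mt-Atp6 and mt-Atp8 encode membrane subunits of the ATP synthase and overlap on the genome. In CPM, mt-Atp8 ranged from 191 to 397 (median 308) in control, 212 to 362 (median 274) at 1Hz, 229 to 746 (median 348) at 4Hz and 259 to 756 (median 416) at 10Hz. Its log2 fold change stood at -0.11 (adjusted p = 0.762), 0.44 (adjusted p = 0.184) and 0.54 (adjusted p = 0.238) at 1Hz, 4Hz and 10Hz. mt-Atp6 ranged from 1265 to 2429.9 (median 1886) in control, 886 to 2015 (median 1567) at 1Hz, 949.8 to 3588 (median 1919) at 4Hz and 1404 to 3842 (median 2437) at 10Hz. Its log2 fold change stood at -0.36 (adjusted p = 0.322), 0.15 (adjusted p = 0.695) and 0.36 (adjusted p = 0.493), or -0.17 (adjusted p = 0.549), 0.37 (adjusted p = 0.159) and 0.44 (adjusted p = 0.226) with the copies. Neither gene passed the threshold against control at any frequency. The 4Hz values without libraries 3, 4 and 5 turned to -0.30 (adjusted p = 0.395) for mt-Atp8 and -0.67 (adjusted p = 0.0654) for mt-Atp6, or -0.23 (adjusted p = 0.394) for mt-Atp6 with its copy.

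Among the stimulated groups, every member that was called was higher at the faster rate of the pair. From 1Hz to 10Hz, 7 members were called higher and 0 lower, where 9.45% of all tested genes were called higher and 8.49% lower. mt-Rnr1 differed by 1.51 ± 0.30 (SE, adjusted p = 0.000358) and mt-Rnr2 by 1.25 ± 0.26 (SE, adjusted p = 0.000668). Complex IV followed, with 1.02 ± 0.24 (SE, adjusted p = 0.00164) for mt-Co2 and 0.82 ± 0.19 (SE, adjusted p = 0.00171) for mt-Co1. These 4 calls held without any single library. The smaller calls were 0.72 (adjusted p = 0.0426) for mt-Atp6, 0.59 (adjusted p = 0.0473) for mt-Nd4 and 0.53 (adjusted p = 0.0298) for mt-Cytb, each lost in 6 to 9 of 12 fits that left out 1 library. These were 1Hz libraries 4, 5 and 6 and 10Hz libraries 3, 5 and 6 for all 3 genes, also 10Hz library 2 for mt-Atp6 and mt-Nd4, and 1Hz libraries 2 and 3 for mt-Nd4, with adjusted p up to 0.131, 0.154 and 0.0928 for mt-Atp6, mt-Nd4 and mt-Cytb. mt-Atp8 at 0.65 (adjusted p = 0.0513), mt-Nd6 at 0.70 (adjusted p = 0.0607) and mt-Nd5 at 0.44 (adjusted p = 0.0764) missed the threshold and passed it without 10Hz library 1, the former pair also without 10Hz library 4, mt-Atp8 also without 1Hz library 1 and mt-Nd6 also without 1Hz library 3. With the copies added, mt-Co2 stood at 0.84 (adjusted p = 0.00111), mt-Atp6 at 0.61 (adjusted p = 0.0229), mt-Co3 at 0.54 (adjusted p = 0.00887) and mt-Nd4l at 0.59 (adjusted p = 0.0354).

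From 1Hz to 4Hz, 6 members were called higher and 0 lower, against 1.59% and 1.4% of all tested genes. mt-Nd6 differed by 1.23 ± 0.29 (SE, adjusted p = 0.00653) and mt-Co1 by 0.80 ± 0.19 (SE, adjusted p = 0.00809), and both calls held without any single library. By limma on TPM, the mt-Co1 call was lost in all 3 forms and the mt-Nd6 call in the form without a filter. The others were 0.73 (adjusted p = 0.0382) for mt-Nd4, 0.73 (adjusted p = 0.0160) for mt-Nd5, 0.65 (adjusted p = 0.0453) for mt-Nd1 and 0.63 (adjusted p = 0.0281) for mt-Cytb. All 4 were lost without 4Hz library 4 or without 4Hz library 5, with adjusted p up to 0.152, 0.136, 0.0886 and 0.0595 for mt-Nd1, mt-Nd4, mt-Cytb and mt-Nd5. For all but mt-Nd5, 4Hz library 3 and 1Hz libraries 4, 5 and 6 also decided the call, as did 1Hz library 2 for mt-Nd1 and mt-Nd4 and 1Hz library 1 for mt-Nd1. mt-Nd2 at 0.70 (adjusted p = 0.0684), mt-Co2 at 0.68 (adjusted p = 0.0606) and mt-Nd4l at 0.85 (adjusted p = 0.0802) missed the threshold and passed it without 4Hz library 1, and in some fits without 4Hz library 2 or 6 or 1Hz library 1 or 4. Without 4Hz libraries 3, 4 and 5 together, 0 members were called, with mt-Nd6 at 0.28 (adjusted p = 0.558) and mt-Co1 at 0.19 (adjusted p = 0.556).

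From 4Hz to 10Hz, 1 member was called higher and 0 lower, against 5.32% and 5.64% of all tested genes. This was mt-Rnr1, at 1.18 ± 0.30 (SE, adjusted p = 0.00572), beside 0.68 ± 0.26 (SE, adjusted p = 0.0596) for mt-Rnr2. Leaving out 4Hz library 3 or 5, or 10Hz library 4 or 6, brought mt-Rnr2 past the threshold as well. Protein genes ranged from -0.53 for mt-Nd6 to 0.35 for mt-Co2, and without 4Hz libraries 3, 4 and 5 mt-Nd6 turned to 0.41 (adjusted p = 0.261). In that same fit, 6 members stood higher at 10Hz with an adjusted p below 0.05, namely both ribosomal RNA genes at 1.65 (adjusted p = 0.00863) and 1.31 (adjusted p = 0.00705), mt-Atp6 at 1.03 (adjusted p = 0.0202), mt-Co2 at 0.99 (adjusted p = 0.0137), mt-Atp8 at 0.84 (adjusted p = 0.0366) and mt-Co1 at 0.63 (adjusted p = 0.0208). Leaving out the 4Hz libraries with the highest levels raises this difference by itself, so these values are no test of 10Hz against 4Hz. The share of all tested genes called in that fit is not given here.

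Ratios between members of one library do not depend on how libraries are scaled to each other, so 3 of them were tested with exact two-sided permutation tests over libraries, with p adjusted over the 6 pairs of conditions. The smallest p that 6 libraries against 6 allow is 0.00216. The first ratio sets mt-Nd6 of the minus strand against mt-Co1 of the plus strand, in counts per 100 mt-Co1 counts. It was 0.413 ± 0.0504 in control (SD, n = 6), 0.800 ± 0.197 at 1Hz, 1.02 ± 0.222 at 4Hz and 0.717 ± 0.121 at 10Hz. The libraries ranged from 0.344 to 0.473 in control, 0.554 to 1.13 at 1Hz, 0.739 to 1.37 at 4Hz and 0.563 to 0.850 at 10Hz. All 18 stimulated libraries therefore lay above every control library. The log2 difference from control was 0.93 at 1Hz, 1.28 at 4Hz and 0.79 at 10Hz, each at the smallest exact p (adjusted p = 0.00433).

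Between frequencies, the mt-Nd6 to mt-Co1 ratio was lower at 10Hz than at 4Hz by a log2 difference of -0.49 (exact permutation p = 0.0173, adjusted p = 0.0260). Between 4Hz and 1Hz it was 0.35 (exact adjusted p = 0.114) and between 10Hz and 1Hz -0.14 (exact adjusted p = 0.461), neither past the threshold. Without 4Hz libraries 3, 4 and 5, the 3 left still lay above every control library, with a log2 difference of 1.05 (exact adjusted p = 0.0238), and the difference of 10Hz from 4Hz was -0.26 (exact adjusted p = 0.268). That last call was also lost without 4Hz library 5 alone, and the difference of 4Hz from 1Hz passed the threshold without 1Hz library 3. Over these single left-out libraries the 10Hz to 4Hz difference ran from -0.58 to -0.40 and the 4Hz to 1Hz difference from 0.25 to 0.46. mt-Nd6 (chrM:13552-14070) overlaps mt-Nd5 of the opposite strand only up to base 13565, where mt-Nd5 ends. The library kit was directional, but whether the counting used strand is not given in the sources used here. Reads from RNA of the opposite strand, anywhere along mt-Nd6, therefore cannot be told apart from its own.

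Taken as a share of all 13 protein genes, mt-Nd6 made up 0.168% ± 0.0198 in control (SD, n = 6), 0.307% ± 0.0701 at 1Hz, 0.417% ± 0.0824 at 4Hz and 0.300% ± 0.0446 at 10Hz. The log2 differences from control were 0.85, 1.30 and 0.83 (exact adjusted p = 0.00433 each), again with no overlap with control. The 4Hz share was higher than that of 1Hz by 0.45 (exact adjusted p = 0.0338) and the 10Hz share lower than that of 4Hz by a log2 difference of -0.46 (exact adjusted p = 0.0227). Between 10Hz and 1Hz it was -0.01 (exact adjusted p = 0.937). Both differences from 4Hz were lost without libraries 3, 4 and 5, at 0.24 and -0.26 (exact adjusted p = 0.300 and 0.250). The call of 4Hz over 1Hz was also lost without any one of 1Hz libraries 1, 2 and 4 or 4Hz libraries 3, 4 and 5, where the difference was 0.36 to 0.46.

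The third ratio sets the small against the large ribosomal RNA. mt-Rnr1 counts per 100 mt-Rnr2 counts were 26.4 ± 1.71 in control (SD, n = 6), 19.4 ± 2.41 at 1Hz, 17.3 ± 1.87 at 4Hz and 23.2 ± 4.66 at 10Hz. Ranges were 23.6 to 28.5 in control, 17.2 to 22.9 at 1Hz, 15.4 to 19.7 at 4Hz and 17.9 to 29.6 at 10Hz. Every library of 1Hz and of 4Hz lay below every control library, so mt-Rnr1 was low relative to mt-Rnr2 in these groups. The log2 difference from control was -0.45 at 1Hz and -0.61 at 4Hz (exact adjusted p = 0.00649 each) and -0.20 at 10Hz (exact adjusted p = 0.136). 10Hz was above 4Hz by 0.41 (exact adjusted p = 0.0260), a call lost without any one of 4Hz libraries 3 to 6, where the difference was 0.33 to 0.48 over all left-out libraries, and at 0.30 (exact adjusted p = 0.214) without 3, 4 and 5. Between 1Hz and the faster rates the differences were -0.17 at 4Hz and 0.24 at 10Hz (exact adjusted p = 0.135 each).

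**Figure D4:**
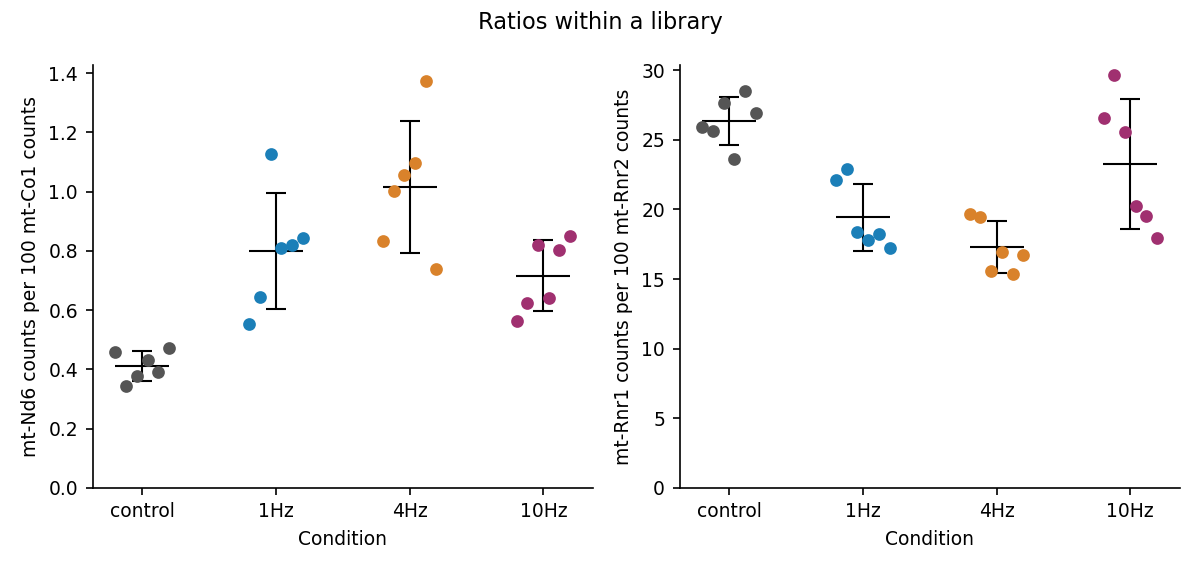
Counts of mt-Nd6 per 100 mt-Co1 counts and of mt-Rnr1 per 100 mt-Rnr2 counts (y axes) by condition, with 1 point per library and bars for the mean ± SD of 6. All stimulated libraries exceed the control maximum of 0.473 in the first ratio, and all 1Hz and 4Hz libraries lie below the control minimum of 23.6 in the second.

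A mark of library make-up moved with these results. Libraries were made by poly(A) selection, except that low-input samples, which the sources used here do not name, were prepared by removal of ribosomal RNA. Of 25 small RNAs without a poly(A) tail that were looked for, such as the 7SK and 7SL RNAs, 22 were in the table and 18 above 0, and together they took 98.8 to 169 unscaled CPM in control, 15 to 70.6 at 1Hz, 18.3 to 50.9 at 4Hz and 38.4 to 272 at 10Hz. The cytosolic ribosomal RNA gene in the table took 0.855 to 1.44% of counts in control, 0.123 to 0.62% at 1Hz, 0.169 to 0.591% at 4Hz and 0.355 to 2.24% at 10Hz. On both, 1Hz and 4Hz lay below control without overlap, as mt-Rnr1 did. mt-Nd6 moved the other way.

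Within conditions, over the 24 libraries as deviations from their condition's mean, the correlation with the small RNA level was 0.56 for mt-Rnr1, 0.38 for mt-Rnr2 and -0.32 for mt-Nd6. It was -0.56 for the mt-Nd6 to mt-Co1 ratio, -0.61 for the mt-Nd6 share and 0.72 for the mt-Rnr1 to mt-Rnr2 ratio. These describe points that share a library and its depth. In an edgeR fit with the small RNA level as a covariate, 0 members passed the adjusted p at 1Hz (0 at an unadjusted p under 0.05) and 0 at 4Hz (2 unadjusted), with mt-Rnr1 at -0.58 (adjusted p = 0.660) for 1Hz, -0.18 (adjusted p = 0.864) for 4Hz, and mt-Nd6 at 1.19 (adjusted p = 0.145) for 4Hz. With this covariate, 1 of the 13318 tested genes was called at 1Hz, and 306 (2.30%) passed the adjusted p at 4Hz. An unadjusted p under 0.05 was found for 1415 of all tested genes at 1Hz and 2339 at 4Hz. Since the covariate does not overlap between control and these groups, the condition and the library make-up cannot be told apart there.

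At 10Hz the small RNA level overlapped control. There mt-Nd6 was the only member past the adjusted p with the covariate, at 1.21 (adjusted p = 0.0167), where 4.63% of all tested genes passed it. mt-Nd1 stood at 0.65 (adjusted p = 0.0773) and mt-Cytb at 0.60 (adjusted p = 0.0742). 10Hz libraries 1, 2 and 3 had small RNA levels within or above the control range, and all 3 had more mt-Nd6 per 100 mt-Co1 counts (0.563 to 0.819) than any control library. Of the same libraries, 2 had an mt-Rnr1 to mt-Rnr2 ratio inside the control range. Within 10Hz, libraries 1 and 2, with the most small RNA (178 and 272 CPM), had the lowest mt-Nd6 to mt-Co1 ratios, 0.563 and 0.624. Library 6, with the least (38.4 CPM), had the highest, 0.850. The part of library make-up in the 10Hz ratios was not tested. Whether the small RNA level marks the low-input samples was not tested. Between 4Hz and 1Hz, whose small RNA levels overlapped, 6 members passed the adjusted p with the covariate, where 12.7% of all tested genes did. For 10Hz and 1Hz 0 members passed it, where 2.42% of all did, and for 10Hz and 4Hz no tested gene passed it.

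**Figure D5:**
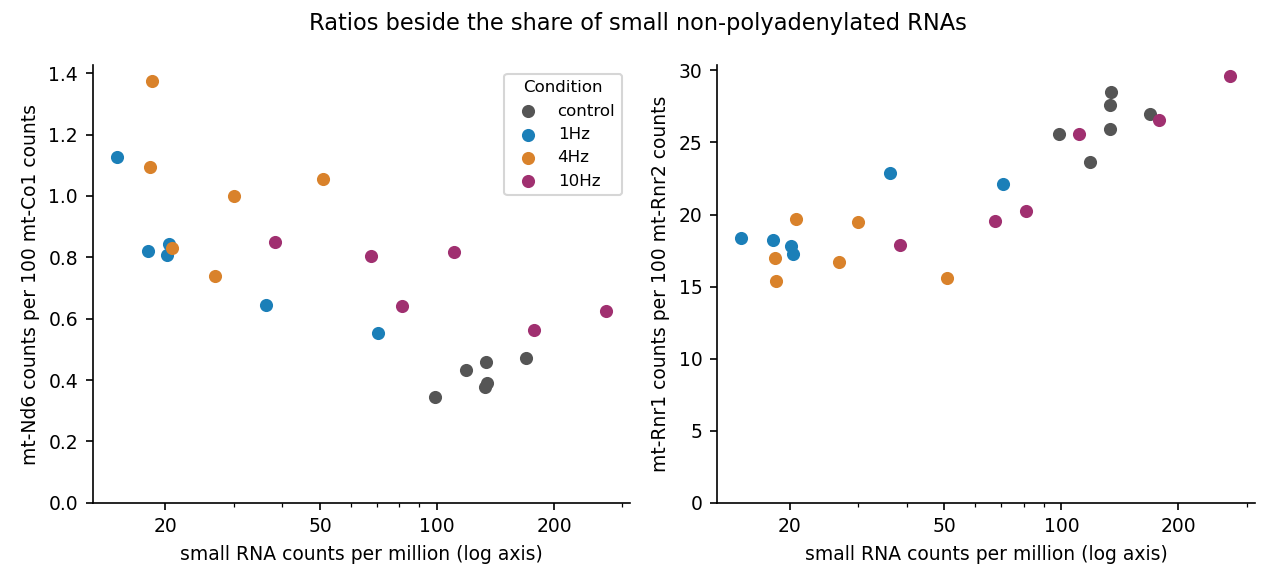
Each library's mt-Nd6 counts per 100 mt-Co1 counts and mt-Rnr1 counts per 100 mt-Rnr2 counts (y axes) against its small RNA level in CPM (x axis, log scale), with 1 point per library and a colour per condition. The 1Hz and 4Hz points lie left of the control points, which start at 98.8 CPM. 10Hz libraries 1, 2 and 3, with small RNA levels within or above the control range, lie above control for mt-Nd6. Libraries 1 and 2, which have the most small RNA, are the lowest of 10Hz there (0.563 and 0.624).

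Within conditions the protein genes rose and fell together from library to library. On deviations of log2 CPM from the condition mean over 24 libraries, the median correlation of a protein gene with the other protein genes was 0.88 to 0.94 for 10 of the 13. It was lower for the genes with most counts in nuclear copies, at 0.23 for mt-Nd3, 0.55 for mt-Co3 and 0.58 for mt-Nd4l, and with the copies added it was 0.86, 0.94 and 0.94. mt-Rnr1 and mt-Rnr2 correlated at 0.95 with each other, and at 0.58 and 0.77 with mt-Co1. The points share library and scaling, and no test was made of them.

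Nuclear genes that act on the mitochondrial genome were counted from lists of transcription factors and terminators (11 tested), of DNA maintenance genes (15) and of RNA processing genes (23). None of the 3 lists had a gene called against control at 10Hz by edgeR, where 1.24% of all tested genes were called higher and 0.623% lower. At 1Hz, 9.34% of all tested genes were called higher and 8.99% lower. Each list had 0 genes called higher at 1Hz and 2 lower. Transcription terminators of the mTERF family were among these, with Mterf2 at -0.79 ± 0.18 (adjusted p = 0.00166) and Mterf1a at -0.67 ± 0.20 (adjusted p = 0.0113) by edgeR. In DNA maintenance they were Polg2, the accessory subunit of the mitochondrial DNA polymerase, at -1.41 ± 0.20 (adjusted p = 1.32e-05), and the helicase-nuclease Dna2 at -1.29 ± 0.27 (adjusted p = 0.000668). In RNA processing they were Pnpt1, a polynucleotide phosphorylase, at -0.57 ± 0.13 (adjusted p = 0.00130) and Ptcd1 at -0.55 ± 0.13 (adjusted p = 0.00167). With the small RNA covariate, 0 of the 13318 tested genes were called lower at 1Hz, so these calls share the limit given for the members.

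At 4Hz, 10.5% of all tested genes were called higher and 9.61% lower. Of the lists, transcription had 0 genes called higher and 1 lower, DNA maintenance 1 and 2, and RNA processing 0 and 1. The lower genes were Mterf2 at -0.60 ± 0.18 (adjusted p = 0.00992), Polg2 at -0.91 ± 0.19 (adjusted p = 0.000458), Dna2 at -0.97 ± 0.26 (adjusted p = 0.00438) and Ptcd1 at -0.52 ± 0.13 (adjusted p = 0.00207), all of which were lower at 1Hz too, against the same control libraries. The higher one was the pyrimidine nucleotide carrier Slc25a33 at 0.58 ± 0.12 (adjusted p = 0.00049). With the small RNA covariate, 152 of the 13318 tested genes were called higher at 4Hz and 96 lower, so these calls share the limit given for the members. Between frequencies, the lists in that order had 3, 0 and 0 genes higher from 1Hz to 4Hz, 3, 4 and 2 from 1Hz to 10Hz and 1, 2 and 0 from 4Hz to 10Hz, with 0 lower throughout. Of all tested genes, 1.59%, 9.45% and 5.32% were called higher in these comparisons and 1.4%, 8.49% and 5.64% lower.

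The central genes of mitochondrial transcription moved little against control. Tfam, which packs and activates the mitochondrial genome, stood at -0.20 ± 0.10 (adjusted p = 0.105) at 1Hz, -0.07 ± 0.10 (adjusted p = 0.574) at 4Hz and 0.04 ± 0.10 (adjusted p = 0.850) at 10Hz. The RNA polymerase Polrmt stood at 0.04 (0.838), -0.15 (0.396) and 0.05 (0.889) and the initiation factor Tfb2m at -0.18 (0.275), -0.13 (0.416) and -0.03 (0.937), with adjusted p in parentheses. The elongation factor Tefm stood at -0.14 (0.292), 0.37 (0.00408) and 0.28 (0.0955), and was called from 1Hz to 4Hz at 0.52 ± 0.10 (adjusted p = 0.00138). Lrpprc and Slirp, which form a complex that stabilizes mitochondrial messenger RNAs, stood at 0.45 (0.00167), 0.29 (0.0294) and 0.12 (0.572) and at -0.14 (0.188), 0.27 (0.0120) and 0.33 (0.0214). Some of these adjusted p lay below 0.05, but no change of the 6 genes against control passed the fold threshold.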

How the data were processed

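RNA of 24 muscle tissues, 6 per condition, was sequenced by the authors as 50-base paired reads and processed with the nf-core RNA-seq pipeline against mouse build GRCm39 with Ensembl genes. The submitters' processing notes name STAR, Salmon, BWA and bedtools. Which annotation release and strand setting were used is not given in the sources used here. Salmon's expected counts and TPM, per gene and sample, are what the authors deposited. The labels give replicate numbers but do not say that samples came from separate cultures, so p-values measure only the spread between these samples.

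Members are all genes named mt-. Members and lists were chosen with earlier results of these data known. Expected counts were rounded, filtered with filterByExpr, scaled by TMM and fitted over all 24 libraries in 1 model with edgeR 4.0.16 (R 4.3.3, quasi-likelihood). Fits were tested on simulated data. Calls needed an adjusted p below 0.05 and a log2 fold change above 0.5 in size. Class sums and TPM levels used unscaled values. Ratios were compared by exact two-sided permutation tests on the means of log2 values. Nuclear copies were found with blastn 2.17.0 in the GRCm39 annotation. All protein and ribosomal RNA genes are named, as are members called in a comparison, up to 3 called genes of each nuclear list per comparison with control, and Tfam, Polrmt, Tfb2m, Tefm, Lrpprc and Slirp. Alternatives were DESeq2 1.42.0 (also with apeglm 1.24.0), limma 3.58.1 on log2(TPM + 1) or log2(TPM + 0.1), other scaling and filters, 12-library fits, a replicate block, a small RNA covariate, copies added, and each library left out. Low counts limit precision for mt-Nd6, mt-Nd3 and transfer RNAs most. For mt-Nd3 the nuclear copies also held 85.1% of the counts, and why transfer RNAs had so few was not tested.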

Additional observations from a re-analysis of the deposited data

Results flagged for a closer look

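2 of 80 groups of 6 libraries had a library whose gap to its nearest neighbour was large for the range of its group by Dixon's 95% criterion, and chance gives about 1 in 20. Both came from 1Hz library 3. Its mt-Nd1 level was 1632 CPM, where the nearest other 1Hz library had 1282. Its mt-Nd6 level was 75.2 CPM, where the nearest had 51.7. These genes lie on opposite strands. No cause was tested.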

How the results depend on the processing

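The results are limited by depth, by the annotated nuclear copies, by 4Hz libraries 3, 4 and 5 and by the overlap of library make-up with condition. Of 2160 alternative values for 90 gene results, 1948 kept their side of the adjusted p threshold, 1849 of these with the same sign. The fold threshold was not part of this count. The 99 that changed sign were past the adjusted p threshold neither before nor after. Without libraries 3, 4 and 5 of 4Hz, which is not among these, 5 of 15 members changed sign against control: mt-Co1 from 0.50, past the adjusted p and short of the fold, to -0.10 (-0.073 with copies added), and, never past the threshold, mt-Co2 from 0.01 to -0.63, mt-Atp8 from 0.44 to -0.30, mt-Atp6 from 0.15 to -0.67 and mt-Nd4l from 0.33 to -0.67. So did 7 members from 1Hz to 4Hz and 9 from 4Hz to 10Hz, none past the threshold before or after.

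Counts of members called are given beside those of all tested genes. The main and covariate fits tested 13318 genes, limma 13627 and limma without filter 31566. Called higher against control at 1Hz were 0 members, and 1 without the low-count filter or with only the 12 libraries compared. Of all tested genes, 1244 were higher, 1418 of 31472 without that filter and 1162 of 12349 with the 12 libraries. Called lower at 1Hz were 3 members, and 0 with the small RNA covariate. Of all tested genes, 1197 were lower in the main fit and 0 with that covariate. At 4Hz, 6 were higher, 3 by limma on log2(TPM + 1) or log2(TPM + 0.1), 1 by limma without filter, 0 with the covariate, and 1 without libraries 3, 4 and 5, an alternative chosen after seeing the data. Of all tested genes, 1396 were higher in the main fit and 677 and 752 by those limma fits. Limma without filter had 642 higher and the covariate fit 152. At 4Hz, 1 was lower, 2 with total count scaling, by limma with either pseudocount or with the replicate block, and 0 with the covariate. The number was also 2 without libraries 3, 4 and 5 (copies added or not), where leaving out the highest libraries lowers the levels by itself. Of all tested genes, 1280 were lower in the main fit and 1821 with total count scaling. By limma 2057 and 2293 were lower, with the block 1278 and with the covariate 96. At 10Hz, 3 were higher, 5 without the low-count filter, 1 by limma with either pseudocount, 0 by limma without filter and 1 with the covariate. Of all tested genes, 165 were higher, 193 without the low-count filter, 77 and 85 by limma, 52 by limma without filter and 122 with the covariate. From 1Hz to 4Hz, 6 were higher, 1 by limma with either pseudocount, and 0 by limma without filter or without libraries 3, 4 and 5. Of all tested genes, 212 were higher in the main fit, 56 and 73 by limma and 40 by limma without filter. From 1Hz to 10Hz, 7 were higher, 4 with DESeq2 and apeglm or with limma in each form, and 0 with the covariate. Of all tested genes, 1259 were higher in the main fit and 1242 of 18034 with DESeq2 and apeglm. Limma had 743 and 817 higher, 669 without filter, and the covariate fit 90. From 4Hz to 10Hz, 1 was higher, 2 with total count scaling or without filter and 0 with the covariate. The number was 6 without libraries 3, 4 and 5, where leaving out the highest 4Hz libraries raises this difference by itself. Of all tested genes, 709 were higher in the main fit, 933 with total count scaling, 774 without filter and 0 with the covariate. Whole-table counts without libraries 3, 4 and 5 are not given here. Apart from those with fewer libraries, the cause of these shifts was not tested.

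Leaving out 1 library at a time gave 1 to 2 members lower at 4Hz, 1 to 3 higher at 10Hz, 2 to 9 from 1Hz to 4Hz, 4 to 10 from 1Hz to 10Hz and 1 to 2 from 4Hz to 10Hz. In that order, 1140 to 1403, 92 to 210, 134 to 300, 1070 to 1432 and 568 to 881 of all tested genes were called. Leaving out 1 library gave log2 differences in the mt-Nd6 to mt-Co1 ratio of 0.25 to 0.46 from 1Hz to 4Hz and -0.58 to -0.40 from 4Hz to 10Hz, in the mt-Nd6 share of 0.36 to 0.54 from 1Hz to 4Hz, and in the mt-Rnr1 to mt-Rnr2 ratio of 0.33 to 0.48 from 4Hz to 10Hz. Without libraries 3, 4 and 5 of 4Hz, 10Hz differed from 4Hz by -0.26 in the mt-Nd6 to mt-Co1 ratio, 0.30 in the mt-Rnr1 to mt-Rnr2 ratio and -0.26 in the mt-Nd6 share, and that share by 0.24 from 1Hz to 4Hz, none past the threshold. Per length, the protein genes held 3.95%, 3.13%, 4.55% and 4.92% of TPM in control, 1Hz, 4Hz and 10Hz, and the transfer RNA genes 0.00452%, 0.00319%, 0.00254% and 0.00786%. Under total count scaling, 942 genes of the whole table were higher and 1595 lower at 1Hz (1244 and 1197 with TMM), and 1012 and 1821 at 4Hz (1396 and 1280), with medians of -0.08 and -0.11.

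Same-numbered libraries of different conditions did not deviate together, with correlations of -0.18 to 0.36 (mean 0.05, 36 pairs), against -0.32 to 0.36 (mean -0.01, 180 pairs) for different numbers. They share only a number. With the replicate block, 2 genes rather than 1 were called lower at 4Hz. Of the 90 gene results, 87 kept their side of the adjusted p threshold, 1 lost it and 2 gained it.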
